A study of Mus musculus with 9 samples.

Results

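The expression of 10 genes that license replication origins was measured in naïve and primed mouse pluripotent stem cells, out of 54232 genes counted. They are *Mcm2*, *Mcm3*, *Mcm4*, *Mcm5*, *Mcm6*, *Mcm7*, *Cdc6*, *Cdt1*, *Gmnn* and *Mcm10*. The genes were chosen by name, and each of the 10 symbols matched 1 Ensembl identifier among the counted genes through GENCODE M21.

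Poly(A) RNA of 9 libraries was sequenced. Naïve mESCs were kept in serum/LIF (S/L) medium, and primed mEpiSCs were obtained from them by culture in F/A medium, which holds bFGF and Activin A. Both states were sampled at passage 5 (P5) and passage 15 (P15), with 2 libraries for each state and passage, and mouse embryonic fibroblasts (MEFs) gave 1 library. The cells of both states were of the OG2 line, derived from C57 x CBA mice carrying a GFP gene under the distal *Oct4* promoter, and grew on MEF feeders stopped from dividing with mitomycin C. The 4 groups therefore come from a single line, and the labels number the libraries of a group rep1 and rep2 without saying what separated them. The paper describes CPM values of single genes in these groups as from 2 biological repeats, but not how the repeats were separated. The p-values therefore measure only the spread between these libraries.

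Before S phase, the origin recognition complex, Cdc6 and Cdt1 load the ring-shaped MCM helicase, whose subunits are encoded by *Mcm2* to *Mcm7*, onto DNA around replication origins. Geminin, the product of *Gmnn*, binds Cdt1 and blocks further loading once S phase has begun, and Mcm10 acts after loading, when the helicase starts to unwind DNA. In dividing cells, transcription of many of these genes rises toward S phase under E2F transcription factors. In RNA from a whole culture, fewer cells in S phase and less RNA per cell cannot be told apart.

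Sequencing depth, as total counts, was 14378051 at the lowest and 20985136 at the highest of the 8 pluripotent libraries, with 25646547 for MEFs. Each member was counted at between 765 and 9749 reads in each of the 8 libraries, far above the 3 counts that a count of 0 allows. State markers followed the labels, since 8 of 8 naïve markers were lower and 5 of 5 primed markers higher in primed cells at both passages. *Zfp42*, a naïve marker, stood at 209.7 CPM (mean of CPM, which gives a gene's counts relative to the library total, scaled between libraries by TMM) in naïve P5 and at 17.3 CPM in primed P5. *Pou5f1*, which encodes Oct4, stood at 211 CPM in primed P5 and at 598 CPM in primed P15. Of 30 fibroblast markers none was at 0 in any library, and by library their median level was 12.6% to 23.3% of that in MEFs, so each culture held RNA of these markers. The markers did not agree on a share. In primed P15, *Dcn* (734 against 211.5 CPM), *Lum* and *Mmp2* stood above their MEF levels, while *Acta2* was at 2.69% and 2.51% of its MEF level.

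The genes of the helicase subunits lie on separate chromosomes with the exception of *Mcm3* and *Mcm6*. In GRCm38, *Mcm2* lies at chr6:88883474-88898780, *Mcm3* at chr1:20802968-20820312, *Mcm4* at chr16:15623897-15637400, *Mcm6* at chr1:128331590-128359664 and *Mcm7* at chr5:138164583-138172422, all on the minus strand. *Mcm5* lies at chr8:75109569-75128439 on the plus strand, as do *Cdt1* at chr8:122568015-122573554 and *Cdc6* at chr11:98907801-98923940. *Gmnn* at chr13:24751845-24761923 and *Mcm10* at chr2:4989714-5012791 are on the minus strand. Gene lengths used here are those of all merged exons, UTRs included. *Mcm7* shares 321 exon bases, 7.25% of its exon length, with *Ap4m1* and 64 with *Cops6*, both on the opposite strand, and the library kit did not mark strand. Of the 50-base words of the *Mcm7* exons, 18.1% also occur in another gene, among them the processed pseudogene *Gm5487*, which held 2 to 10 counts in a library, so the *Mcm7* level is less certain than those of the other subunits.

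RefSeq start sites of GRCm38.p6 gave a promoter window, from 250 bases before the start to 50 after it, for 8 of the 10 members, with 9 windows in all, and none for *Mcm4* and *Gmnn*. The windows were searched on both strands for the E2F-type motifs TTTGGCGC, TTTCGCGC, TTTCCCGC and TTTGCCGC, of which the first and the second can overlap each other in opposite orientation. At least 1 of these motifs was found for 6 of the 8 members, *Mcm3*, *Mcm5*, *Mcm6*, *Mcm7*, *Cdc6* and *Cdt1*. Over all 32851 windows, 2.26% held one. CCAAT, searched in the same way, was found for 6 of the 8 members and in 37.4% of all windows. A match is a run of letters and not evidence of binding. The 9 stretches with an E2F-type match are shown because most members with a window hold one and few of all windows do. Each has 30 bases, is read 5′ to 3′ on the strand of its gene, and has the match in capitals, overlapping matches being joined.
Cdc6, chr11:98908002-98908031, plus strand: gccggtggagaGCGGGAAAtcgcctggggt
Cdt1, chr8:122568035-122568064, plus strand: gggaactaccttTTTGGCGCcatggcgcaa
Mcm3, chr1:20820275-20820304, minus strand: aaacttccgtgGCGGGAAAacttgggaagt
Mcm3, chr1:20820263-20820292, minus strand: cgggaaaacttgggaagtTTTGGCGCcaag
Mcm5, chr8:75109347-75109376, plus strand: gccaagaacTTTCGCGCCAAAacgtccagc
Mcm6, chr1:128359795-128359824, minus strand: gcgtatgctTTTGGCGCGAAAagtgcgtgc
Mcm6, chr1:128359734-128359763, minus strand: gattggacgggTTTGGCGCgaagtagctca
Mcm7, chr5:138172030-138172059, minus strand: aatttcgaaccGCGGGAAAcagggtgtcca
Mcm7, chr5:138171849-138171878, minus strand: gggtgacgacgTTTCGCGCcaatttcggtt
The joined matches of *Mcm5* and *Mcm6* hold both orientations, TTTCGCGC with the reverse of TTTGGCGC in *Mcm5* and TTTGGCGC with the reverse of TTTCGCGC in *Mcm6*. In *Mcm5* the match ended 142 bases before the start and in *Mcm6* 99 bases before it, while the *Mcm6* window held another match that ended 40 bases before the start. The matches of *Cdt1* and *Mcm3* lay after the start site, and *Mcm7* had one on either side. For *Mcm5* and *Mcm6*, and for *Mcm2*, whose window held no such match, the 250 bases before the start are given below in the same form.
Mcm2, chr6:88898781-88899030, minus strand: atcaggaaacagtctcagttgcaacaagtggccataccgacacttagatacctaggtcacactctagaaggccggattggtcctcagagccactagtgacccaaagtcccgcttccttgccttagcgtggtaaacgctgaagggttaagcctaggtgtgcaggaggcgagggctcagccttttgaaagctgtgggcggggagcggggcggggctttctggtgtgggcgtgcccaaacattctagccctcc
Mcm5, chr8:75109259-75109508, plus strand: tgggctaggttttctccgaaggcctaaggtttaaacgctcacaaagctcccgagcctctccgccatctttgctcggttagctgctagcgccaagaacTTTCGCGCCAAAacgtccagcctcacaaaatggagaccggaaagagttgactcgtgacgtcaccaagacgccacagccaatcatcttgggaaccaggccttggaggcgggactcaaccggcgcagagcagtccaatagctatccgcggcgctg
Mcm6, chr1:128359706-128359955, minus strand: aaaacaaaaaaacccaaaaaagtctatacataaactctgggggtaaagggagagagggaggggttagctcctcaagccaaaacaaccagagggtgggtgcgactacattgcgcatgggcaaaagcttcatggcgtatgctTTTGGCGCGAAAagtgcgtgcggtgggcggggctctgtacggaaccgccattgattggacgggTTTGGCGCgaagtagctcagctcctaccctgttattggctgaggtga

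The level of all 10 genes was highest in naïve cells, lower in primed cells and lowest in MEFs. In the comparison of states at P5, primed cells had less RNA of 10 of 10 members, from 47.1% of the naïve mean for *Mcm5* to 67.9% for *Mcm7*. Among all 16482 genes tested at P5, 62.3% were called, 31.1% lower and 31.2% higher, at an adjusted p under 0.01 (quasi-likelihood test of edgeR, Benjamini-Hochberg adjusted, the call used throughout), so a lower call alone was common. Scaling by library size alone moved the median of all genes at P5 to 0.21 and the calls to 3547 lower and 6810 higher, from 5127 and 5147, and 10 of 10 members were lower under it as well. The median log2 fold change of the 10 members was −0.77, against 0.0078 for all genes tested. A call with a change of at least 2-fold was made for 22.3% of all genes and for 2 of the 10 members, *Mcm5* and *Cdt1*. In the 10 members both primed libraries lay below both naïve libraries, as was so, in one direction or the other, for 84.6% of all genes at P5.

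**Figure D1:**
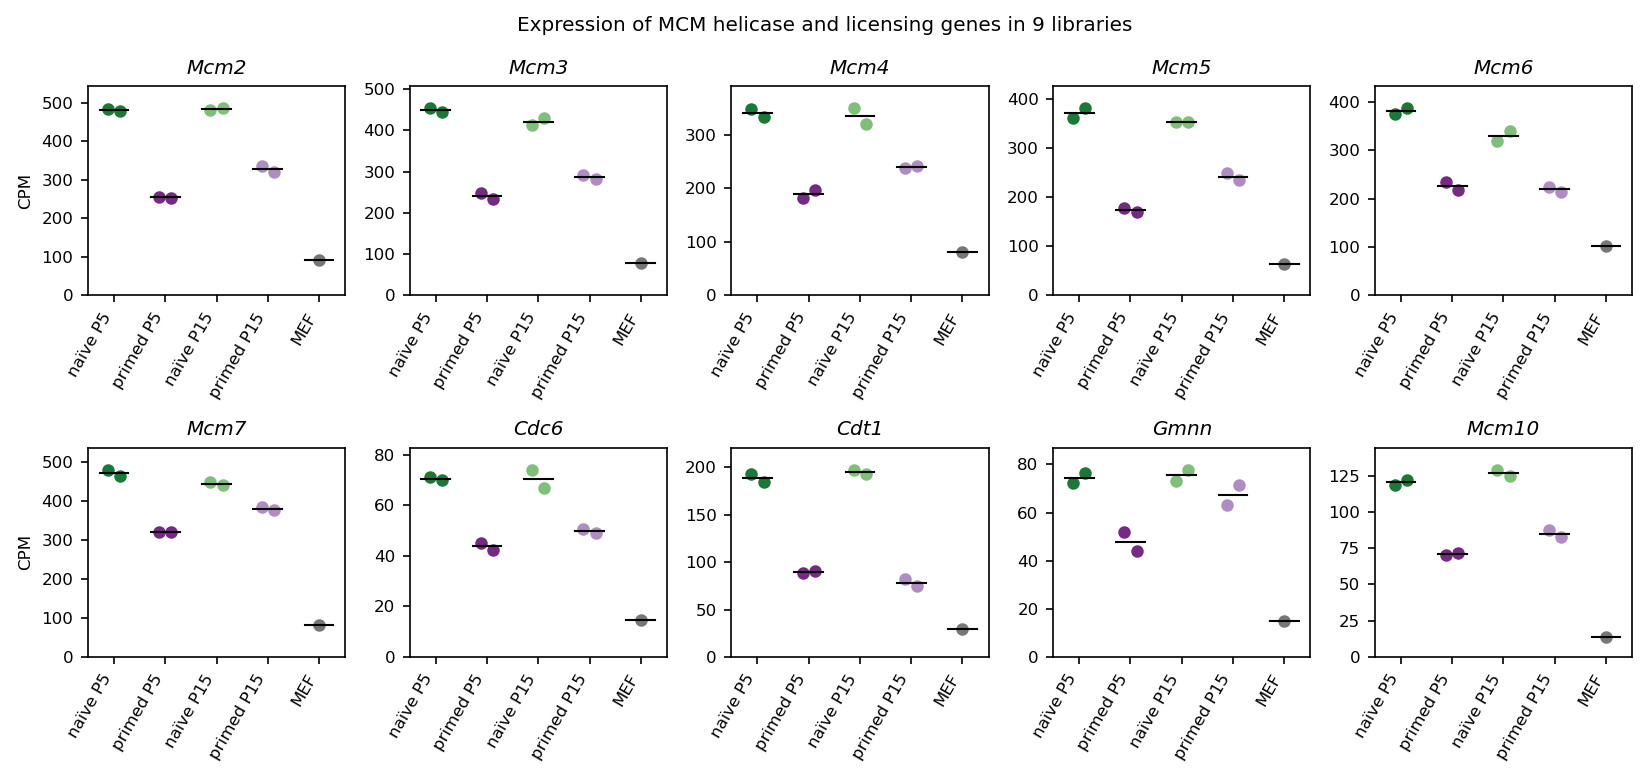
Level of each of the 10 genes (y axis, CPM with TMM scaling, starting at 0) in the 2 libraries of each state and passage and in the 1 MEF library (x axis). Points are libraries and the line is the group mean. In each panel the primed P5 points lie below the naïve P5 points and the MEF point is lowest.

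Of the helicase subunit genes, *Mcm2* was at 485 and 479.5 CPM in naïve P5 and at 256 and 254 CPM in primed P5. Its libraries within a group were close together and the groups did not overlap, and the log2 fold change was −0.89 ± 0.035 (SE; adjusted p = 1.36e-19). *Mcm3* was at 453 and 445 CPM in naïve P5 and at 247 and 233 CPM in primed P5, which gave −0.87 ± 0.037 (adjusted p = 9.19e-19). For *Mcm4* the naïve P5 levels were 348 and 333 CPM and the primed P5 levels 182 and 197 CPM, a log2 fold change of −0.81 ± 0.040 (adjusted p = 3.23e-17). These 3 subunit genes thus fell by between 0.81 and 0.89 on the log2 scale, in libraries that did not overlap. *Mcm5* had the largest fall of the 10 at P5, from 362 and 382 CPM to 179 and 171 CPM (−1.05 ± 0.038, adjusted p = 2.72e-20). *Mcm6* was at 374 and 386 CPM in naïve P5 and at 235 and 218 CPM in primed P5 (−0.71 ± 0.038, adjusted p = 3.25e-16). *Mcm7* had the smallest fall, from 479 and 464 CPM to 319 and 321 CPM (−0.53 ± 0.035, adjusted p = 3.30e-14), and whether it fell less than another subunit gene was not tested.

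The loaders and regulators moved the same way at P5. *Cdt1*, whose product brings the helicase to the origin, was at 193 and 185 CPM in naïve P5 and at 89.0 and 90.7 CPM in primed P5, a log2 fold change of −1.04 ± 0.043 (adjusted p = 4.84e-19). *Cdc6*, the ATPase that acts beside it, was at 71.2 and 69.8 CPM against 45.2 and 42.4 CPM (−0.65 ± 0.057, adjusted p = 2.54e-11). *Gmnn*, the inhibitor of Cdt1, was at 72.2 and 76.6 CPM in naïve P5 and at 51.9 and 43.9 CPM in primed P5 (−0.60 ± 0.063, adjusted p = 1.33e-09), and the spread between its primed libraries was the widest relative to the mean among the 10 genes. *Mcm10* stood at 119 and 122 CPM in naïve P5 and at 70.4 and 71.4 CPM in primed P5 (−0.73 ± 0.047, adjusted p = 1.70e-14). The genes without an E2F-type motif in their windows, *Mcm2* and *Mcm10*, had changes within the range of the 6 genes with one. *Mcm4* and *Gmnn* had no window, and whether the change goes with the motif was not tested.

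At P15 the same comparison called 9 of the 10 members lower in primed cells and none higher, with *Gmnn* the gene not called. The background was 28.4% of 15733 genes lower and 28.2% higher, 56.6% in all, and the members had a median log2 fold change of −0.56 against −0.0039 for all genes. Only *Cdt1* of the 10 passed 2-fold, which 23.2% of all genes did. Both primed libraries lay below both naïve libraries for each member, where 81.9% of genes had groups that did not overlap in either direction.

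*Cdt1* showed the largest difference at P15, at 197 and 193 CPM in naïve cells and at 81.8 and 74.5 CPM in primed cells, a log2 fold change of −1.33 ± 0.065 (adjusted p = 1.02e-19). *Cdc6* was at 73.9 and 66.9 CPM against 50.8 and 48.9 CPM (−0.51 ± 0.076, adjusted p = 3.68e-07). *Gmnn* was at 73.2 and 77.7 CPM in naïve P15 and at 63.3 and 71.5 CPM in primed P15, and its log2 fold change of −0.18 ± 0.073 did not pass (adjusted p = 0.0347), though it did with a block of crossed replicate pairs, added after seeing the data (−0.18, adjusted p = 0.00915). The highest primed *Gmnn* library lay less than 2 CPM under the lowest naïve one. *Mcm10* was at 129 and 125 CPM against 87.2 and 82.8 CPM (−0.59 ± 0.066, adjusted p = 7.79e-10).

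Among the subunit genes at P15, *Mcm2* was at 482 and 486 CPM in naïve cells and at 336 and 322 CPM in primed cells (−0.57 ± 0.056, adjusted p = 2.99e-11). *Mcm3* at 412 and 431 against 292 and 283 CPM gave −0.56 ± 0.056 (adjusted p = 5.42e-11). *Mcm5* at 354 CPM in both naïve libraries and 250.02 and 235 CPM in the primed ones gave −0.56 ± 0.057 (adjusted p = 1.15e-10). *Mcm2*, *Mcm3* and *Mcm5* were therefore separated between states by nearly the same log2 change at P15. *Mcm4* was at 349 and 321 CPM in naïve P15 and at 238 and 241 CPM in primed P15 (−0.50 ± 0.059, adjusted p = 2.85e-09). *Mcm6* was at 318 and 339 CPM against 225 and 214 CPM (−0.59 ± 0.058, adjusted p = 3.38e-11). The smallest subunit difference was again that of *Mcm7*, at 447 and 440.3 CPM against 383 and 376.5 CPM (−0.24 ± 0.055, adjusted p = 0.000317), and without the second primed P15 library, with library size alone as the scaling or with the median fibroblast share subtracted, this call was lost (adjusted p = 0.0117, 0.0309 and 0.0266).

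**Figure D2:**
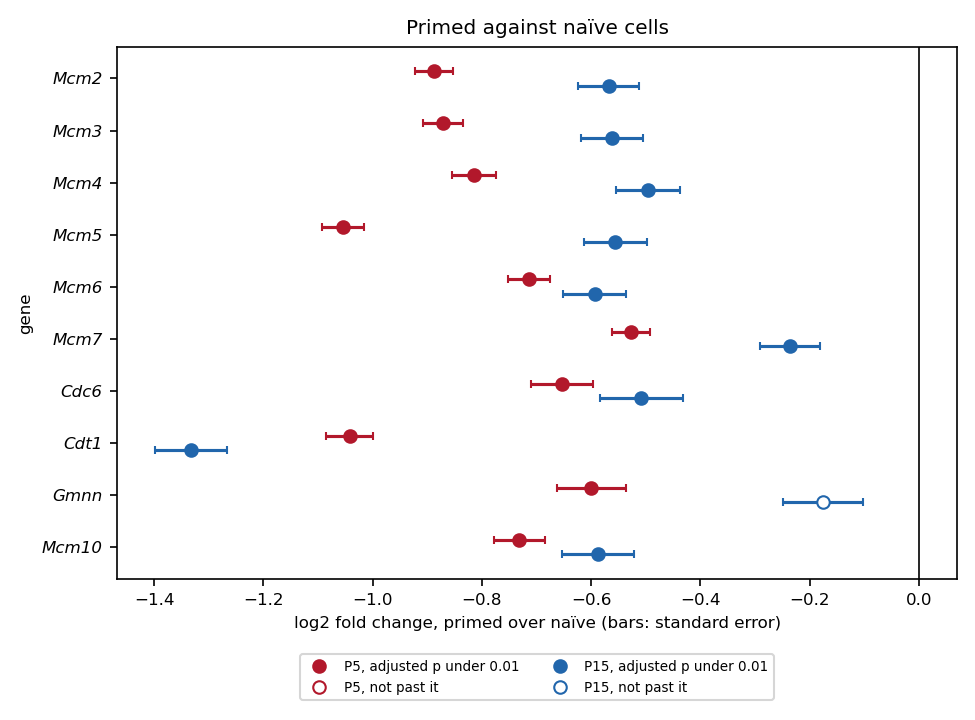
Log2 fold change of primed over naïve cells (x axis) for each gene (y axis) at P5 and at P15, with bars of 1 standard error from edgeR. Filled points passed an adjusted p of 0.01. All points lie left of 0, *Gmnn* at P15 is the open one, and *Cdt1* is the gene whose P15 point lies left of its P5 point.

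The MEF library had the lowest level of each of the 10 genes. They stood there between 13.6 CPM (*Mcm10*) and 102 CPM (*Mcm6*), which was 11.3% and 26.8% of their naïve P5 means, and the library has no replicate. The summed level of the 30 fibroblast markers was 14418 and 14512 CPM in naïve P5, 10463 and 10212 CPM in primed P5, 23378 and 24394 CPM in naïve P15, and 19539 and 18749 CPM in primed P15, against 99131 CPM in MEFs. From naïve P15 to primed P15 the summed level fell while the median share rose, from 18.5% and 18.8% to 23.3% and 22.4%. The share is therefore not a measured feeder fraction. At the median marker share, MEF RNA would make up 1.63% to 10.7% of a member's level in a library. This takes the feeders to hold these genes at the level of the MEF library. The title of that library does not say whether its cells were stopped from dividing, as the feeders were. The G2/M genes *Mki67* and *Top2a* stood at 192.5 and 205 CPM in it, against 264.1 and 707.7 CPM in naïve P5. Whether feeders held less RNA of the members was not tested. With the median share subtracted, 10 members were still lower in primed cells at P5 and 8 at P15.

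With passage, naïve cells changed little in these genes. From naïve P5 to naïve P15, 1 of 10 members was called, *Mcm6*, which fell from 374 and 386 CPM to 318 and 339 CPM (log2 fold change −0.21 ± 0.044, adjusted p = 0.00521). The background was 9.22% of 15683 genes called, 5.01% lower and 4.21% higher, so 1 of 10 is near it. The call on *Mcm6* was lost without the second naïve P5 library (adjusted p = 0.0491), without the first naïve P15 library (0.0170), with no low-count filter (0.0275) and with the fibroblast share subtracted at the median ratio (0.0520) or the lowest (0.0104). Groups did not overlap for 6 of the 10 members, against 58% of all genes. The other 9 had log2 fold changes between −0.089 (*Mcm3*) and 0.076 (*Mcm10*), none past the threshold, and that of *Mcm3* had the lowest unadjusted p among them (0.0477, edgeR).

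In primed cells, 8 of 10 members were called between passages, with 7 higher and 1 lower at P15. The background was 24.3% of 15957 genes higher and 22.8% lower, or 3874 and 3644 genes, which became 2554 and 4910 with library size alone. The median over the members was 0.23, against −0.0012 for all genes, 9 of 10 had groups that did not overlap against 78.1%, and 0 of 10 passed 2-fold against 11.6%. *Gmnn* rose by the largest log2 change, 0.46 ± 0.076, from 51.9 and 43.9 CPM to 63.3 and 71.5 CPM (adjusted p = 9.86e-06). *Mcm5* rose by 0.44 ± 0.051 (adjusted p = 4.37e-08), and its P15 mean of 243 ± 10.4 CPM (SD, n = 2) lay between the primed P5 mean of 175 ± 5.35 CPM and the naïve P5 mean of 372 ± 13.98 CPM. The same place between those means held for the others that rose, *Mcm2* (0.34 ± 0.048, adjusted p = 1.19e-06), *Mcm4* (0.31 ± 0.052, adjusted p = 1.43e-05), *Mcm3* (0.23 ± 0.049, adjusted p = 0.000264), *Mcm7* (0.22 ± 0.046, adjusted p = 0.000255) and *Mcm10* (0.23 ± 0.060, adjusted p = 0.00189). As a share of naïve P5, these 7 genes reached between 64.1% (*Mcm3*) and 90.6% (*Gmnn*) in primed P15.

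*Cdt1* went the other way with passage in primed cells, from 89.0 and 90.7 CPM to 81.8 and 74.5 CPM (−0.23 ± 0.061, adjusted p = 0.00202). That call was lost without the second primed P5 library (adjusted p = 0.0146), without the second primed P15 library (0.0194) and with the median fibroblast share subtracted (0.178). *Mcm6* stood at 235 and 218 CPM in primed P5 and at 225 and 214 CPM in primed P15, overlapping groups with a log2 fold change of −0.078 ± 0.052 (adjusted p = 0.201). *Cdc6* had 0.15 ± 0.071 (adjusted p = 0.0648). The number of members called higher was 4 when either primed P5 library was left out. Without the first, *Mcm4*, *Mcm7* and *Mcm10* were lost (adjusted p = 0.0111, 0.0262 and 0.0575), and without the second, *Mcm3*, *Mcm7* and *Mcm10* (0.0602, 0.0189 and 0.0312). It was also 4 with library size alone, which moved the median of all genes to −0.13 and added *Mcm6* to the lower calls (−0.21, adjusted p = 0.00105). Other measures differed between the same libraries, since 24 of the 30 fibroblast markers and *Pou5f1* were higher in primed P15, while 7 of 8 naïve markers (median log2 fold change −2.86, with *Zfp42* at 17.3 CPM in P5 and 0.228 CPM in P15) and *Sox2* were lower, and their part in the result was not tested beyond the subtraction above, under which 7 members were still called higher.

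**Figure D3:**
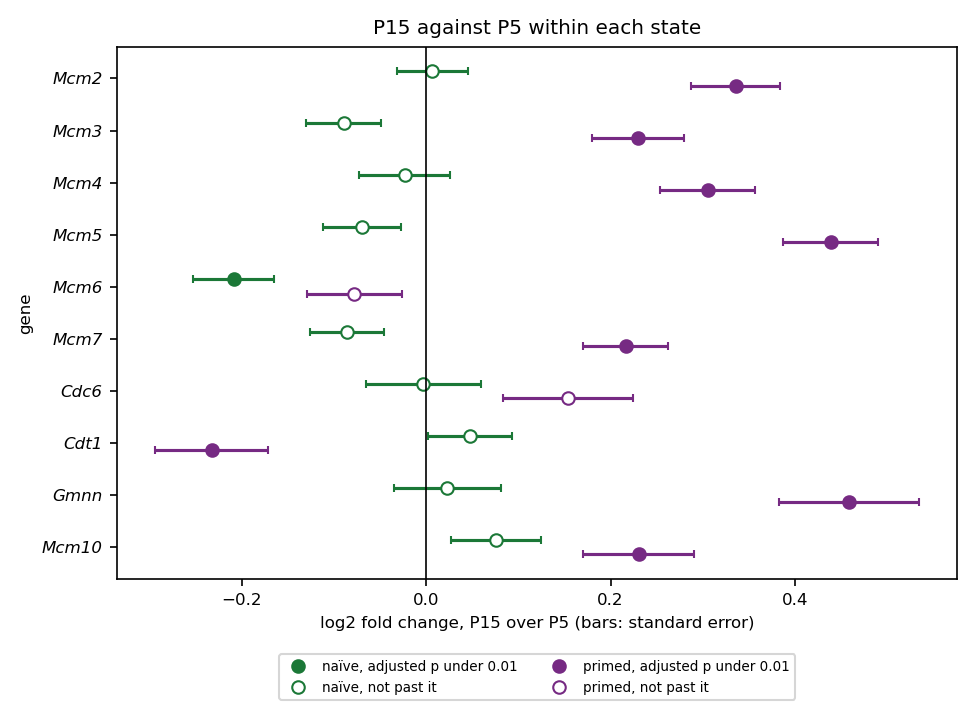
Log2 fold change of P15 over P5 (x axis) for each gene (y axis) in naïve cells and in primed cells, with bars of 1 standard error from edgeR. Filled points passed an adjusted p of 0.01. The naïve points lie between −0.21 and 0.076, while 7 filled primed points lie right of 0 and that of *Cdt1* lies left of it.

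Whether the difference between states itself changed with passage was tested with an interaction term over the 8 libraries. It was called for 7 of the 10 members, against 24.1% of 16926 genes, of which 13.3% had a higher and 10.8% a lower value at P15, or 2243 and 1836 genes, which became 1402 and 2585 with library size alone. The difference was smaller at P15 for *Mcm5* (0.51 ± 0.066, adjusted p = 2.04e-07), *Gmnn* (0.44 ± 0.10, adjusted p = 0.00106), *Mcm2* (0.34 ± 0.060, adjusted p = 4.14e-05), *Mcm4* (0.34 ± 0.070, adjusted p = 0.000306), *Mcm3* (0.33 ± 0.063, adjusted p = 0.000132) and *Mcm7* (0.31 ± 0.059, adjusted p = 0.000103). For *Cdt1* the difference was larger at P15 (−0.27 ± 0.076, adjusted p = 0.00517), but this call was lost in 8 alternatives with adjusted p up to 0.0626, among them leaving out the second naïve P5, the first naïve P15, the second primed P15 or either primed P5 library. Without the second primed P5 library those of *Mcm3* and *Gmnn* were lost (adjusted p = 0.0118 and 0.0382), without the first that of *Mcm4* (0.0259), and without the second primed P15 library that of *Gmnn* (0.0124). A change of 2-fold or more in the difference was called for 7.16% of all genes and for 0 of the 10. The terms of *Mcm6*, *Cdc6* and *Mcm10* were 0.14, 0.16 and 0.16 and did not pass (adjusted p = 0.122, 0.191 and 0.112).

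The relative levels of the subunit genes were compared per kilobase (kb) of merged exon length. Merged length counts the exons of all annotated transcripts, expressed or not, so the order between genes depends on it. By CPM without this division, *Mcm2*, with a merged length of 6956 bases, was the highest subunit gene in naïve P5, at 482 CPM. In naïve P5 the order was *Mcm3* at 119.7 ± 1.65 CPM per kb (SD, n = 2), *Mcm7* at 106 ± 2.43, *Mcm4* at 94.9 ± 2.92, *Mcm5* at 93.1 ± 3.50, *Mcm6* at 81.4 ± 1.85 and *Mcm2* at 69.3 ± 0.532. Of neighbours in this order, *Mcm4* and *Mcm5* overlapped between libraries and the others did not. In primed P5 the order was *Mcm7* at 72.2 ± 0.289 CPM per kb, *Mcm3* at 64.0 ± 2.69, *Mcm4* at 52.8 ± 3.02, *Mcm6* at 48.5 ± 2.57, *Mcm5* at 43.9 ± 1.34 and *Mcm2* at 36.7 ± 0.139, and the closest neighbours were the lowest *Mcm4* library at 50.7 and the highest *Mcm6* library at 50.3. *Mcm3* was the highest in all 4 naïve libraries and *Mcm7* in all 4 primed libraries, while *Mcm4* was the highest in MEFs. The ratio of the highest to the lowest subunit was 1.72 to 1.73 in naïve P5, 1.96 to 1.98 in primed P5, 1.61 to 1.65 in naïve P15 and 1.80 to 1.86 in primed P15, so it was higher in the 4 primed libraries than in the 4 naïve ones. These ratios are a description that depends on the same lengths, and no test was made on them.

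**Figure D4:**
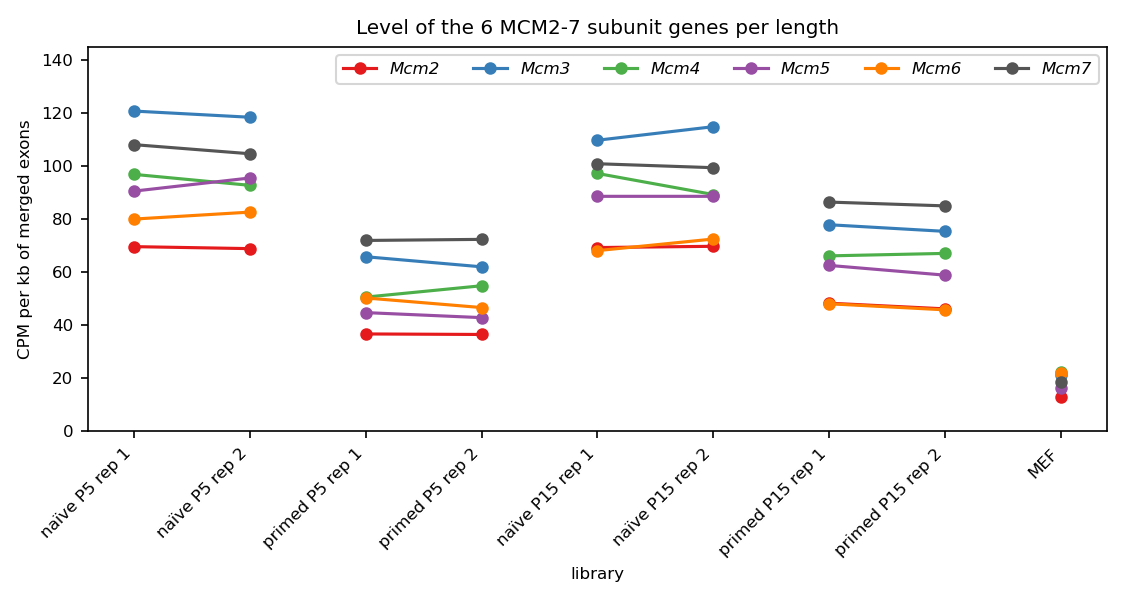
Level per kb of merged exons (y axis, CPM per kb, starting at 0) of the 6 subunit genes in each of the 9 libraries (x axis). Lines join the 2 libraries of a group. *Mcm3* is on top in the naïve libraries and *Mcm7* in the primed ones.

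Summed over the 6 subunit genes, the level was 2500.5 and 2488 CPM in naïve P5, 1417 and 1394 CPM in primed P5, 2363 and 2370.5 CPM in naïve P15, and 1724 and 1671 CPM in primed P15. MEFs had 501 CPM. In shares of all counts, without scaling between libraries, the subunit genes took 0.240% and 0.241% of the counts of the naïve P5 libraries and 0.160% and 0.158% of the primed P5 libraries. The primed libraries were thus lower without that scaling too.

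The RNA ratio of the loader Cdt1 to its inhibitor geminin separated the naïve from the primed libraries, as a description without a test. The ratio of *Cdt1* to *Gmnn*, both per kb, was 1.249 and 1.13 in naïve P5, 0.800 and 0.964 in primed P5, 1.26 and 1.16 in naïve P15, and 0.603 and 0.487 in primed P15. It was higher in each of the 4 naïve libraries than in any of the 4 primed libraries, and the MEF library had 0.920. The size of the ratio depends on the merged exon lengths, 3140 bases for *Cdt1* and 1465 for *Gmnn*, so a value of 1 has no meaning of its own. The sizes of the ratios that follow depend on merged lengths in the same way. *Cdt1* per kb was 4.41 to 4.81 times *Cdc6* in naïve libraries and 2.54 to 3.56 times in primed libraries. The mean subunit level per kb was 1.42 to 1.59 times that of *Cdt1* in naïve libraries, 1.82 and 1.89 times in primed P5, and 2.49 and 2.66 times in primed P15. Much of the *Cdt1* and *Gmnn* proteins is set by degradation through the cell cycle, which RNA does not show.

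The genes that act around these members were lower in primed cells in most lists. The counts of each list below stand against all genes, of which 31.1% were lower and 31.2% higher at P5. At P15 the shares of all genes were 28.4% lower and 28.2% higher. At P5, 5 of 7 origin recognition genes were lower and none higher, with a median log2 fold change of −0.60, and *Orc2* (−1.02), *Lrwd1* (−0.61) and *Orc6* (−0.61) had the largest changes. At P15 5 of 7 were lower, among them *Orc2* (−0.86), *Orc1* (−0.72) and *Orc6* (−0.68). *Orc3* and *Orc4*, named after their values were seen, had −0.15 and 0.18 at P5 and −0.028 and −0.25 at P15, and neither passed in either comparison, so the subunit genes of the origin recognition complex did not all move with *Orc2*.

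Of 13 genes of helicase activation, 11 were lower at P5 and 1 higher, with a median of −0.54, and 8 were lower at P15 with a median of −0.38. *Ticrr*, needed for the firing of loaded origins, fell by 1.36 at P5 and by 1.47 at P15 on the log2 scale, and its P5 means were 103 ± 1.88 CPM in naïve and 39.4 ± 2.39 CPM in primed cells. *Gins1* (−1.05) and *Cdc45* (−0.78), parts of the active helicase together with the MCM ring, followed at P5, and *Dbf4* (−0.97), the activator of the kinase Cdc7, and *Mtbp* (−0.64) at P15. *Cdc7* was the gene higher at P5 (0.28, named after its value was seen), so the kinase and its activator were called in opposite directions at that passage.

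Among 4 genes related to the MCM family, 2 were lower at P5 and 2 of 3 tested at P15, against 31.1% and 28.4% of all genes. *Mcmbp*, whose product binds MCM subunits, had −0.42 and −0.32, and *Mcm8*, which acts in recombination, was called at P15 (−0.48). *Mcmdc2*, a meiotic gene, was the other call at P5 (−1.86, adjusted p = 0.00710). Its mean levels, 0.793 CPM in naïve and 0.210 CPM in primed cells, were near the detection limit. The geminin relatives *Gmnc* and *Mcidas* held 0 to 5 and 0 to 6 counts in a library and were not tested.

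The genes of the turnover of licensing factors included 10 of 11 lower at P5 and 9 of 11 at P15. *Dtl*, which targets Cdt1 for degradation in S phase, was lower at P5 (−0.78) and at P15 (−1.04). *Cdc20* (−0.75) and *Fbxo5* (−0.58), activator and inhibitor of the anaphase-promoting complex, were among the largest at P5, and *Cul4b* (−1.07) at P15. *Cul4a*, named after its values were seen, was the one gene higher, with 0.31 at P5 and 0.46 at P15, so the paralogous scaffolds of the ligase that works with Dtl were called in opposite directions.

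Of 26 replisome genes, 22 were lower and 1 higher at P5 (median −0.66), and 15 were lower and none higher at P15 (median −0.36). The largest changes at P5 were *Pola1* (−1.37) and *Prim2* (−1.21), of the polymerase that starts DNA strands, and *Rpa1* (−1.32), which coats single-stranded DNA. *Pola1* (−1.20), *Rfc5* (−1.17), of the clamp loader, and *Rpa1* (−1.12) led at P15. Of 23 other S phase genes, 22 were lower at P5 (median −0.58) and 16 at P15 (median −0.50), with none higher, and *Ung* (−1.23 and −1.14) and *Hells* (−1.09 and −1.19) were among the largest at both passages. Of 39 G2/M genes, 31 were lower and 3 higher at P5 (median −0.39), and 27 and 2 at P15 (median −0.33), with *Ect2* at −1.03 and −1.37. The lists of S phase genes and of the replisome had medians nearer to that of the 10 members than the G2/M list at P5. At P15 the members had −0.56, the S phase genes −0.50, the replisome −0.36 and the G2/M genes −0.33. Differences between lists were not tested.

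Of the 13 E2F and RB genes, 5 were lower and 3 higher at P5 (median 0.11), where 31.1% and 31.2% of all genes were, and 6 were lower and 4 higher at P15 (median −0.22), where 28.4% and 28.2% were. At P5 the number called is thus near the share of all genes. *E2f1*, an activator of S phase genes, was lower at both passages (−0.89 and −0.67), as was *Tfdp1*, the partner of E2F proteins, at P5 (−0.66). *E2f2* was lower at P15 (−1.36). *E2f5*, a repressor-type family member, was higher at both (0.83 and 1.07).

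**Figure D5:**
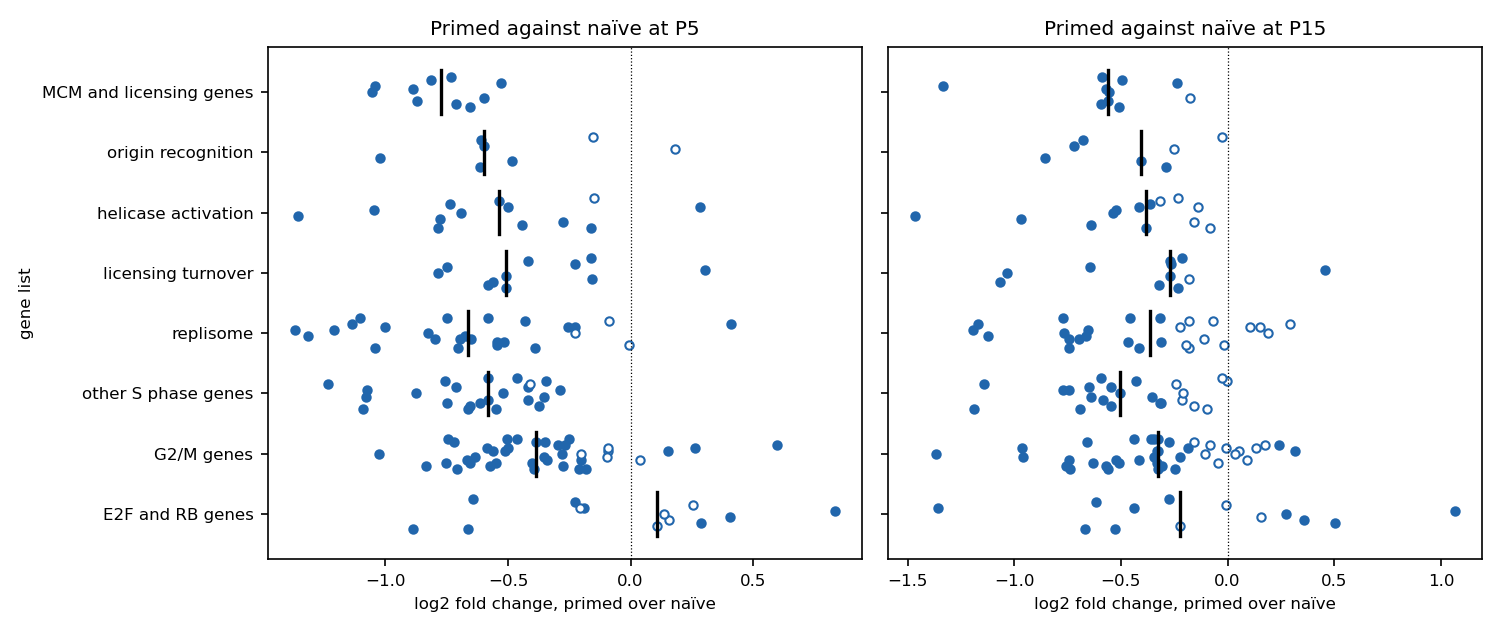
Log2 fold change of primed over naïve cells (x axis) for the 10 members and for the genes of 7 lists around them (y axis), at P5 and at P15, the panels having their own x scales. Each point is a gene, filled where an adjusted p of 0.01 was passed, and the bar is the list's median. The bars of each list but the E2F and RB list at P5 lie left of 0.

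With passage in primed cells, 13 of 26 replisome genes rose and 1 fell (median 0.23), and 13 of 23 other S phase genes rose and 3 fell (median 0.28), where 24.3% of all genes rose and 22.8% fell. Of the 39 G2/M genes, 11 were higher and 10 lower (median −0.019), near those shares. In naïve cells, 2 of the 23 S phase genes rose and 1 fell between passages, near the 4.21% and 5.01% of all genes. The interaction was called for 8 of 26 replisome genes, each with a higher value at P15 than at P5, and for 10 of 23 S phase genes, 9 of them in that direction. Over all genes 24.1% were called, 13.3% with a higher and 10.8% with a lower value. The number of replisome genes called in either direction is near that background, but 8 had a higher value and 0 a lower one. Whether this split differs from that of all genes was not tested.

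Across the 8 naïve and primed libraries, the gene whose log2 level most resembled the mean profile of the 6 subunit genes was *Surf6* (Pearson r = 0.9988), among 9894 genes of at least 10 CPM on average. *Atp5b* (0.9987), *Iars* (0.9983), *Slc25a39* (0.9981) and *Nelfa* (0.998) followed. These points are 4 groups of 2 libraries that share depth and scaling, so r is a description. The members' own r ran from 0.9975 for *Mcm3* to 0.8606 for *Gmnn*, with *Mcm6* at 0.9334 and *Cdt1* at 0.9131. The subunit genes are part of the mean they were set against. *Cdc6* (0.9854), *Mcm10* (0.9843), *Cdt1* and *Gmnn* are not part of it. These values therefore do not rank the members.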

How the data were processed

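Raw counts of each gene in 9 libraries were deposited. The authors made these counts from poly(A) RNA (NEBNext Ultra kit, Illumina HiSeq) by trimming with Cutadapt, aligning with HISAT2 to mm10 with up to 20 alignments kept per read (-k 20) and counting with featureCounts on an Ensembl annotation. Its release, the strand setting of featureCounts and its handling of multi-mapped reads are not given in the sources used here. Because these settings are unknown, levels of genes that share sequence or overlap on the other strand, such as *Mcm7*, are less certain. Samples were grouped from their titles, and the column names early and late were read as P5 and P15 from the series' design text.

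Genes were named with GENCODE M21. Genes with at least 10 counts in at least 2 libraries of a comparison were tested with edgeR 4.0.16 (R 4.3.3) by the quasi-likelihood test with TMM scaling, over all genes, and called at a Benjamini-Hochberg adjusted p under 0.01. The standard error is the log2 fold change over the square root of F. Each comparison of 2 groups used its 4 libraries, and the interaction used 8. CPM were scaled by TMM over the 9 libraries. The 92 spike-in entries are not genes and were left out. Libraries of a group differed by more than sampling noise. The tests were tested on simulated data.

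The members and gene lists were chosen with earlier results of these data known. In each comparison all 10 members were named. From each surrounding list, at most the 3 called genes of largest change at P5 and at most the 3 at P15 were named. In the lists of other S phase genes and of G2/M genes, not all of these were named. Across all other genes of at least 10 CPM, the 5 closest to the mean profile of the subunit genes were named. The lists were taken from textbook roles. The state markers, the fibroblast markers and all alternatives were applied to the same counts. As alternatives, the low-count filter was dropped, TMM was replaced by library size alone or by the size factors of DESeq2, and other settings were a replicate block, a fit of all 8 libraries, the Wald test of DESeq2 1.42.0, subtraction of the fibroblast share of the MEF counts at the median or the lowest marker ratio, and leaving out each library. Sequences were read from RefSeq promoter windows of GRCm38.p6, the mm10 build.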

Additional observations from a re-analysis of the deposited data

Results flagged for a closer look

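The effect of state, primed against naïve, differed between P5 and P15 by an edgeR interaction test (Benjamini-Hochberg adjusted p) for 7 of the 10 genes. The P15 effect minus the P5 effect on the log2 scale was 0.34 for *Mcm2* (adjusted p = 4.14e-05), 0.33 for *Mcm3* (0.000132), 0.34 for *Mcm4* (0.000306), 0.51 for *Mcm5* (2.04e-07), 0.31 for *Mcm7* (0.000103) and 0.44 for *Gmnn* (0.00106), so that primed cells were less far below naïve cells at P15 in these genes. It was −0.27 for *Cdt1* (0.00517), the only member of the 10 for which it was negative. At P5 the naïve and primed means of *Cdt1* were 189 and 89.8 CPM, and at P15 195 and 78.2 CPM. The means of *Gmnn* were 74.4 and 47.9 CPM at P5 and 75.5 and 67.4 CPM at P15. Over all genes tested, 24.1% were called by the same test.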

How the results depend on the processing

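At P5, each of the 13 alternatives gave 10 members lower and none higher in primed cells. At P15, 8 to 10 members were lower under the alternatives. Between naïve passages the 1 lower call (*Mcm6*) became 0 with no low-count filter and with the fibroblast share subtracted at the median or the lowest ratio, and leaving out 1 library gave 0 to 1. Between primed passages, library size alone gave 2 lower and 4 higher against 1 and 7, subtraction at the median ratio gave 0 lower, and leaving out 1 library gave 0 to 1 lower and 4 to 7 higher. DESeq2's Wald test lost *Mcm10* (adjusted p = 0.0166). For the interaction, the lower call (*Cdt1*) became 0 with no low-count filter, with subtraction at the median ratio and with DESeq2's Wald test, and leaving out 1 library gave 0 to 1 lower and 4 to 6 higher. Library size alone left 4 higher, losing *Mcm4* (0.0127) and *Gmnn* (0.0146), and *Gmnn* was also lost without the second primed P5 or primed P15 library (0.0382 and 0.0124), *Mcm3* without the second primed P5 library (0.0118) and *Mcm4* without the first (0.0259). Without one of a pair of libraries, the lone library is assumed to vary like those of the other group, and the cause of these losses was not tested.

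Signs changed for values near 0 that were called in neither setting. Between naïve passages they were *Mcm2* with library size alone (−0.017), with no low-count filter (−0.0024) and in the fit of 8 libraries (−0.00069), *Gmnn* with library size alone (−0.00072), *Mcm4* with subtraction at the median ratio (0.036), and *Cdc6* with subtraction at the median (0.060) and lowest ratio (0.0080) and with DESeq2's Wald test (0.00098). With 1 library left out, the log2 fold change ranged from −0.0063 to 0.0096 for *Mcm2*, from −0.090 to 0.045 for *Mcm4*, from −0.079 to 0.077 for *Cdc6* and from −0.025 to 0.061 for *Gmnn*. Between primed passages, *Mcm6* had 0.019 with subtraction at the median ratio.

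Deviations of replicates with the same number correlated, over 10001 genes, at −0.12 between states at P5, −0.17 between states at P15 and 0.15 between passages in each state. Each comparison has 2 pairs and the labels give the numbers no shared origin, so they were not taken as pairs. With the replicate block the members called were 10 lower at P5 and 9 at P15, 1 lower between naïve passages, 1 lower and 7 higher between primed passages, and 1 and 6 for the interaction, and the block over all genes moved 1446 naïve passage calls to 2783. Crossed pairs, added after seeing the data, gave 10 lower at both passages, with 10675 genes called at P5 and 9477 at P15. Of the other counts over all genes, that between naïve passages moved by over 1.5 times, from 1446 to 551 with no low-count filter.

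With 2 libraries a group from a single line, differences of passage have little replication, and a change seen in 1 culture cannot be told apart from one of passage.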
